A study of Mus musculus with 6 samples.

Results

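The genes described here make up the folding and secretory machinery of the endoplasmic reticulum (ER) of mouse lung antigen presenting cells. They were taken from a list of 37 gene symbols, chosen by function with earlier results of these data known. Each gene was represented by its brightest probe over the 6 arrays. Of the 37 genes, 36 had a named probe among the 19057 named genes of the array, and Dnajb11 was not measured here. The 29 genes whose brightest probe lay in the brighter 50% of all probes were tested, and all 29 lay above that limit in the mean of each group. Sec61b, at a mean log2 intensity of 7.35 over the 6 arrays, lay just inside the limit of 7.27, and Edem1, at 7.18, just outside.

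All samples were preparations from lungs of female C57BL/6 mice, with 2 Illumina arrays in each of 3 groups. The first group was wild type in room air, the second was wild type given cigarette smoke for 4 months, and the third was Spp1-/- given smoke in the same way. Spp1 encodes osteopontin, a secreted matrix and cytokine protein. A group of Spp1-/- mice kept in room air was not analysed here, and the labels give neither the age of the mice nor how the cells were isolated. Spp1 itself had no named probe, so the genotype label was not checked. The labels do not state whether a group's 2 arrays stand for different mice, and a p-value here speaks only of the spread among these arrays, possibly a technical one.

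Proteins bound for the cell surface, for lysosomes or for secretion enter the ER through the Sec61 channel, lose their signal peptide, and are folded there by chaperones, disulfide isomerases and prolyl isomerases. Chains that fail to fold are drawn back to the cytosol and degraded, a route called ER-associated degradation. When unfolded protein accumulates, the sensors IRE1 (gene Ern1), ATF6 and PERK start the unfolded protein response, and the factors XBP1 and ATF6 raise transcription of chaperone and degradation genes. Plasma cells and secretory epithelium are known for high levels of this machinery, and macrophages use it for their secreted and lysosomal proteins.

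The values are log2 intensities, on which a difference of 1 is a doubling. The labelled cell type was checked with 12 marker genes of antigen presenting cells, of which 11 were measured, all brighter than the testing limit. Of these, 3 rose with smoke in wild type (Itgax, Fcer1g and Tyrobp) and 4 fell (Cd74, H2-Aa, H2-Ab1 and H2-Eb1). The summed linear intensity of the 11 markers ran from 141355 to 142475 in air, from 133660 to 141896 in wild type smoke and from 145956 to 147028 in the Spp1-/- arrays. This sum weighs the brightest genes most, first Lyz2 at a mean log2 intensity of 15.52, and does not show the opposed shifts of single markers. Markers of other lung cells were present too and moved with smoke. The summed intensity of 14 epithelial markers ran from 165141 to 189234 in air and from 52477 to 66789 in wild type smoke, that of 10 endothelial markers from 42426 to 58535 and from 5344 to 7127, and that of 11 fibroblast and smooth muscle markers from 88526 to 97710 and from 19353 to 23047. The air arrays differed from each other more than the others did, where the median SD per tested gene was 0.149, against 0.091 for the wild type and 0.087 for the Spp1-/- arrays given smoke. In these bulk preparations, a change in the number of cells of a type and a change in RNA per cell cannot be told apart.

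The first comparison asked how smoke related to these genes in wild type preparations. Genes of 3 stages of the pathway rose together, namely folding cofactors (Fkbp11, Creld2, Dnajc3), the entry channel and the complexes at it (Sec61a1, Ssr3, Ssr4, Spcs1, Spcs2, Sec11c), and degradation (Edem2, Sel1l, Derl2). The general chaperones Hspa5 and Hsp90b1 and the disulfide isomerases P4hb, Pdia3, Pdia4 and Pdia6 did not pass, nor did the sensors. Of the 29 tested genes, 12 rose and 0 fell at a limma adjusted p under 0.05, against 11.1% of all 12382 tested genes that rose and 10.3% that fell. The air and smoke arrays did not overlap for 20 genes that were higher and 2 that were lower in smoke, Hsp90b1 and Syvn1, against 34.8% and 24.8% of all tested genes. The median log2 difference was 0.50 over the 29 genes and 0.04 over all tested genes. By role, 3 of 12 folding genes, 6 of 9 translocation genes, 0 of 3 sensor genes and 3 of 5 degradation genes rose.

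The number of calls depended on which arrays entered. Without wild type smoke replicate 1, 1 of the 12 kept its call, and the same was true without wild type smoke replicate 2. In both cases that gene was Fkbp11, while the share called among all genes in either direction went from 21.4% to 6% and 7.47%. Without either Spp1-/- array, 7 of the 12 kept their call, and 5 lost it, namely Sec11c, Ssr3, Spcs2, Sel1l and Derl2. All 12 differences stayed positive with each array left out in turn.

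Promoter windows from RefSeq (build GRCm38.p6) are shown for 4 genes, running from 250 bases before to 50 bases after the transcription start, 5′ to 3′ on the strand of the gene. Fkbp11 and Creld2 are shown because they had the largest rises among the folding genes of the list. Hspa5 carries the classical ER stress element, and Herpud1, a degradation gene that did not pass, carries the second form of it. Capitals mark matches to the ER stress element (CCAAT and CCACG with 9 bases between them), its second form (ATTGG and CCACG with 1 base between them), the XBP1-type element TGACGTG and the ATF4-type element TGATGNAA, all searched on both strands.
Fkbp11, chr15:98727578-98727877, minus strand: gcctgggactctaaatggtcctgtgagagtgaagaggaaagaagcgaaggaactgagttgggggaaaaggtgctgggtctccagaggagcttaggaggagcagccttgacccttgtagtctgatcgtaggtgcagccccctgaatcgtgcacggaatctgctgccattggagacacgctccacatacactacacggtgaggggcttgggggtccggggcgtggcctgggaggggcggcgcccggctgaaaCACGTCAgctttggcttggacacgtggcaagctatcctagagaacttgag
Creld2, chr15:88819396-88819695, plus strand: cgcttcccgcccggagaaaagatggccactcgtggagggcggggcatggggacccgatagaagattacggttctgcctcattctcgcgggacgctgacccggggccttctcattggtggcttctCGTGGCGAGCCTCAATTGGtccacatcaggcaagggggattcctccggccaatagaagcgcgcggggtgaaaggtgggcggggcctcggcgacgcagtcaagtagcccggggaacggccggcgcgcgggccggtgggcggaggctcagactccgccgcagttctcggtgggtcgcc
Hspa5, chr2:34771840-34772139, plus strand: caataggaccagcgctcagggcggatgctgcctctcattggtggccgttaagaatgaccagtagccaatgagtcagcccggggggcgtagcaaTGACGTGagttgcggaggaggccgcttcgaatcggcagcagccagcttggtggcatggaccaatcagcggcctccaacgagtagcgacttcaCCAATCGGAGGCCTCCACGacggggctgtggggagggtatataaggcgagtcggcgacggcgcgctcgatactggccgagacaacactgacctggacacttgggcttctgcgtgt
Herpud1, chr8:94386179-94386478, plus strand: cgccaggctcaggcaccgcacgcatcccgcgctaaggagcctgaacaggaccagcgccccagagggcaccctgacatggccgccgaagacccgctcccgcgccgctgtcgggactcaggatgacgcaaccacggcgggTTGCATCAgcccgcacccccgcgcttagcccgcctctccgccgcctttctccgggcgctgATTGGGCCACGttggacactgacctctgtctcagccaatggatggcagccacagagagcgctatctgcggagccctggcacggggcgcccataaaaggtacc

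Of the 37 genes, 30 matched a window. The ER stress element was found in 9 of the 30, namely Hspa5, Hsp90b1, Calr, Canx, Pdia6, Dnajc3, Creld2, Syvn1 and Derl3, against 0.137% of the 27025 genes with a window. Among the genes that rose with smoke it was found in 2 of 10 with a window, Dnajc3 and Creld2, and among the other members in 7 of 20. The second form was found in Dnajb11 and Herpud1 (0.0444% of all genes). The XBP1-type element was found in Hspa5 and Fkbp11 (2.22% of all genes), and in Fkbp11 it begins at the first transcribed base of 1 of its 2 windows, the one shown. The ATF4-type element was found in Herpud1 alone among the members (4.51% of all genes). A core of CCACG, which lies within both forms of the ER stress element, was found in 26 of the 30 members and in 35.5% of all genes. Among the 9963 tested genes with a window, the shares of these motifs, in the same order, were 0.12%, 0.0703%, 3.04%, 3.12% and 48.8%. The matches are of letters only, and the motifs were chosen after the values had been seen.

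Among the 12 tested folding genes of the list, Fkbp11, a prolyl isomerase of the secretory pathway that is abundant in antibody-secreting cells, had the largest change. Its log2 intensity was 9.12 and 9.47 on the air arrays, 12.57 and 12.27 on the wild type smoke arrays and 11.996 and 12.04 on the Spp1-/- arrays. Every smoke array thus lay well above both air arrays. The rise in wild type was 8.73-fold (log2 difference 3.13 ± 0.17 SE, limma adjusted p = 0.00157), the 9th largest positive difference among the 12382 tested genes. Fkbp11 has a single probe in the annotation used here. Fkbp2, a prolyl isomerase of the same family, stood at 8.07 and 7.90 in air and 8.06 and 8.09 in wild type smoke, and its groups overlapped. A second probe of Fkbp2, nearly as bright, did not overlap and gave a log2 difference of 0.23 against 0.09.

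Creld2, an ER stress-inducible gene with a role in disulfide folding, stood at 9.57 and 9.86 in air and 11.001 and 11.11 in wild type smoke. The groups were apart by more than the gap within either, and the rise was 2.54-fold (limma adjusted p = 0.00853). A second probe of Creld2, nearly as bright, gave a log2 difference of 1.30 against 1.34. Dnajc3 encodes P58IPK, a cochaperone of BiP, and stood at 10.67 and 10.28 in air and at 11.75 and 11.76 in wild type smoke, a 2.42-fold rise (limma adjusted p = 0.0104). Its second probe was dim, at a mean of 7.12, and gave -0.0085.

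Hspa5 encodes BiP, the central chaperone of the ER lumen. It stood at 9.47 and 9.64 in air, 10.23 and 9.87 in wild type smoke, and 10.51 and 10.53 on the Spp1-/- arrays. The groups did not overlap, and the wild type log2 difference of 0.49 ± 0.15 (SE) did not pass (limma adjusted p = 0.0808). Dnajb9, the cochaperone ERdj4 that acts on BiP and on IRE1, stood at 10.91 and 10.50 in air, 11.14 and 11.26 in wild type smoke, and 11.36 and 11.72 on the Spp1-/- arrays. Its log2 difference of 0.50 did not pass in wild type (limma adjusted p = 0.14), and it passed without wild type air replicate 1 (adjusted p = 0.0423). A second bright probe gave 0.47.

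The remaining tested folding genes had log2 differences between -0.23 and 0.20, none of which passed. Hsp90b1, the ER form of HSP90 known as GRP94, stood at 14.45 and 14.37 in air and 14.23 and 14.14 in wild type smoke, slightly lower on both smoke arrays. P4hb, the founding disulfide isomerase and the beta subunit of collagen prolyl hydroxylase, stood at 13.93 and 14.14 in air and 14.10 and 14.30 in wild type smoke. Both genes were bright on every array, and the 95% intervals of their log2 differences ran from -0.57 to 0.12 for Hsp90b1 and from -0.16 to 0.51 for P4hb. The intervals of the other disulfide isomerases ran from -0.21 to 0.60 for Pdia3 and from -0.37 to 0.31 for Pdia6, and from -0.49 to 0.88 for Pdia4, whose wild type smoke arrays were 0.64 apart. Sdf2l1, a cochaperone of BiP, differed by 0.13. The probes of the lectin chaperones Calr and Canx, of Hyou1, a nucleotide exchange factor of BiP, and of Manf, a secreted ER stress protein, were too dim to be tested, with means between 7.03 and 7.13.

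**Figure D1:**
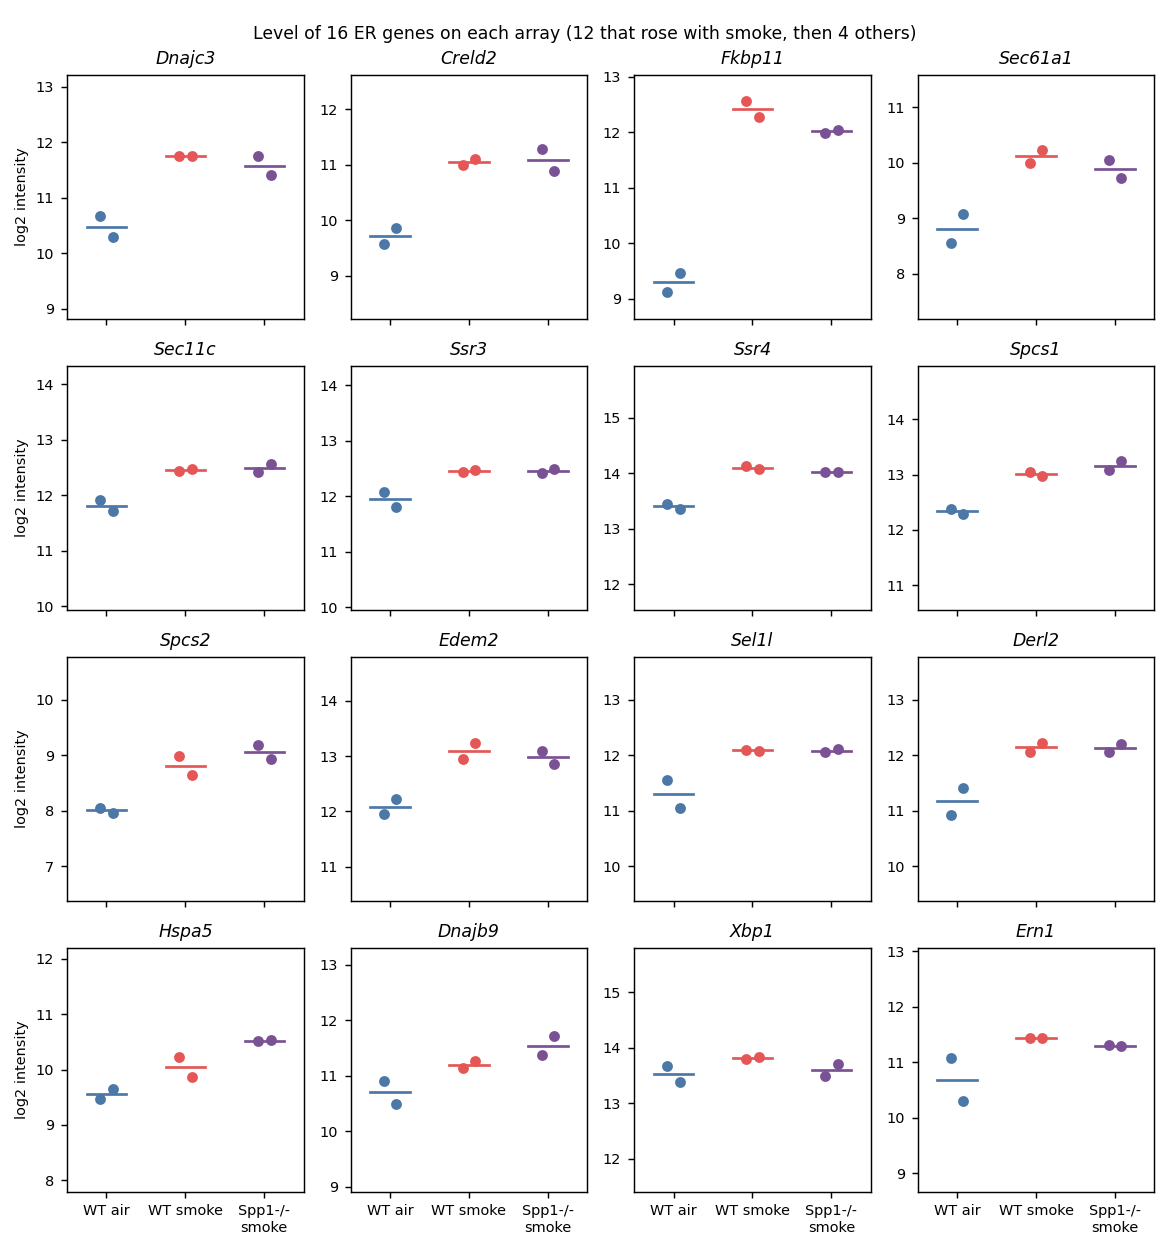
Log2 intensity on each array (points) and group mean (bars) of the 12 ER genes that rose with smoke in wild type, followed by Hspa5, Dnajb9, Xbp1 and Ern1. Every panel spans the same range of log2 units. For the 12 genes both smoke groups lie above both air arrays, with the widest step for Fkbp11, from 9.12 and 9.47 in air to 12.57 and 12.27 in wild type smoke.

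Of the 9 translocation genes, which carry new chains into the ER and trim them, 6 rose. Sec61a1 encodes the pore of the channel and stood at 8.54 and 9.08 in air, 9.99 and 10.24 in wild type smoke, and 10.04 and 9.72 on the Spp1-/- arrays. The air arrays were 0.54 apart, yet both lay below all smoke arrays, and the rise was 2.47-fold (limma adjusted p = 0.0175). A second probe of Sec61a1, at a mean of 7.43 just above the brightness limit, gave -0.03. Sec61b, the beta subunit, had a dim probe, with 7.44 and 7.17 in air and 7.32 and 7.33 in wild type smoke.

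The signal peptidase, which cuts the signal peptide from the entering chain, was represented in the list by 3 subunits, and all 3 rose. Spcs1, an accessory subunit, stood at 12.39 and 12.28 in air and at 13.05 and 12.97 in wild type smoke (1.60-fold, limma adjusted p = 0.0152). Spcs2, also accessory, stood at 8.05 and 7.97 in air and 8.99 and 8.64 in wild type smoke (1.75-fold, limma adjusted p = 0.0255). Sec11c, a catalytic subunit, stood at 11.91 and 11.71 in air and 12.44 and 12.46 in wild type smoke (1.56-fold, limma adjusted p = 0.02). None of the 3 overlapped between air and smoke. A second, dimmer probe of Spcs1 gave a log2 difference of 0.92 against 0.68. Sec11a and Spcs3, further subunits outside the list, did not pass (limma adjusted p = 0.986 and 0.187). Sec11a stood at 13.67 and 13.72 in air and 13.56 and 13.84 in wild type smoke, a log2 difference of 0.0045. The difference of Spcs3 was 0.48.

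The TRAP complex, whose 4 subunits lie beside the channel and aid the entry of some chains, was mixed. Ssr4 stood at 13.45 and 13.36 in air and 14.12 and 14.08 in wild type smoke (1.62-fold, limma adjusted p = 0.00875), with a second bright probe at 0.75 against 0.70. Ssr3 stood at 12.07 and 11.82 in air and 12.44 and 12.48 in wild type smoke (1.43-fold, limma adjusted p = 0.0393), and this smallest of the 12 rises lost its call under every alternative that took the call from any of the 12. Ssr2 overlapped between the groups, at 11.14 and 11.16 in air and 11.15 and 11.35 in wild type smoke.

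Ssr1 had the second largest log2 difference of the list, 1.76, and did not pass (limma adjusted p = 0.0906). SSR1 is the alpha subunit of the same complex. Its brightest probe read 9.21 on one air array and 7.39 on the other, while all 4 smoke arrays lay between 9.99 and 10.12. The difference was 0.85 when only wild type air replicate 1 was kept and 2.67 when only replicate 2 was kept, and it passed in both cases (limma adjusted p = 0.0122 and 0.00169). The 3 dimmer probes of Ssr1 gave differences between -0.0095 and 0.34.

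Neither the sensors nor their factor passed. Xbp1, the transcription factor made active by IRE1, was bright everywhere, at 13.68 and 13.38 in air, 13.79 and 13.82 in wild type smoke, and 13.50 and 13.70 on the Spp1-/- arrays, and the wild type log2 difference was 0.28 ± 0.14 (SE, limma adjusted p = 0.246). The array reports total Xbp1 RNA as far as the annotation tells, and its splicing, by which IRE1 acts, was not measured. Ern1 stood at 11.07 and 10.29 in air and at 11.43 and 11.44 in wild type smoke. Its difference of 0.75 did not pass (limma adjusted p = 0.101), and it passed without wild type air replicate 1, where it was 1.14. Atf6 read 8.95 and 7.39 on the 2 air arrays against 7.74 and 7.90 in wild type smoke, so its direction depended on which air array was used. It was -1.14 when only wild type air replicate 1 was kept, where it passed downward (limma adjusted p = 0.00764), and 0.43 when only replicate 2 was kept. Ssr1, Atf6, Ern1 and Sec61a1 were the 4 tested members whose air arrays were more than 0.5 apart, against 1 among the wild type smoke arrays and 0 among the Spp1-/- arrays.

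Of the 5 tested degradation genes, 3 rose. Edem2, a mannosidase-like protein that marks misfolded glycoproteins, stood at 11.95 and 12.23 in air, 12.94 and 13.24 in wild type smoke, and 13.10 and 12.86 on the Spp1-/- arrays (2-fold in wild type, limma adjusted p = 0.0169). Derl2, a derlin of the membrane complex through which chains leave, stood at 10.93 and 11.42 in air and 12.07 and 12.23 in wild type smoke (1.96-fold, limma adjusted p = 0.0225). Sel1l, the scaffold of the ubiquitin ligase HRD1, stood at 11.54 and 11.04 in air and 12.10 and 12.08 in wild type smoke (1.73-fold, limma adjusted p = 0.0349). In all 3 genes both smoke arrays lay above both air arrays. Second bright probes gave log2 differences of 0.75 for Edem2, 0.93 for Derl2 and 0.35 for Sel1l.

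Syvn1, which encodes HRD1 itself, went the other way from its partner Sel1l in value, at 13.19 and 13.43 in air and 12.97 and 13.12 in wild type smoke, and did not pass (log2 difference -0.27, limma adjusted p = 0.24). Herpud1, an ER stress-induced component of the same complex, stood at 13.17 and 13.11 in air and 13.39 and 13.38 in wild type smoke. Its groups were apart and its difference was small, 0.24 ± 0.09 (SE, limma adjusted p = 0.128). The probes of Edem1, Derl1 and Derl3 were too dim to be tested, with means between 6.95 and 7.18.

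**Figure D2:**
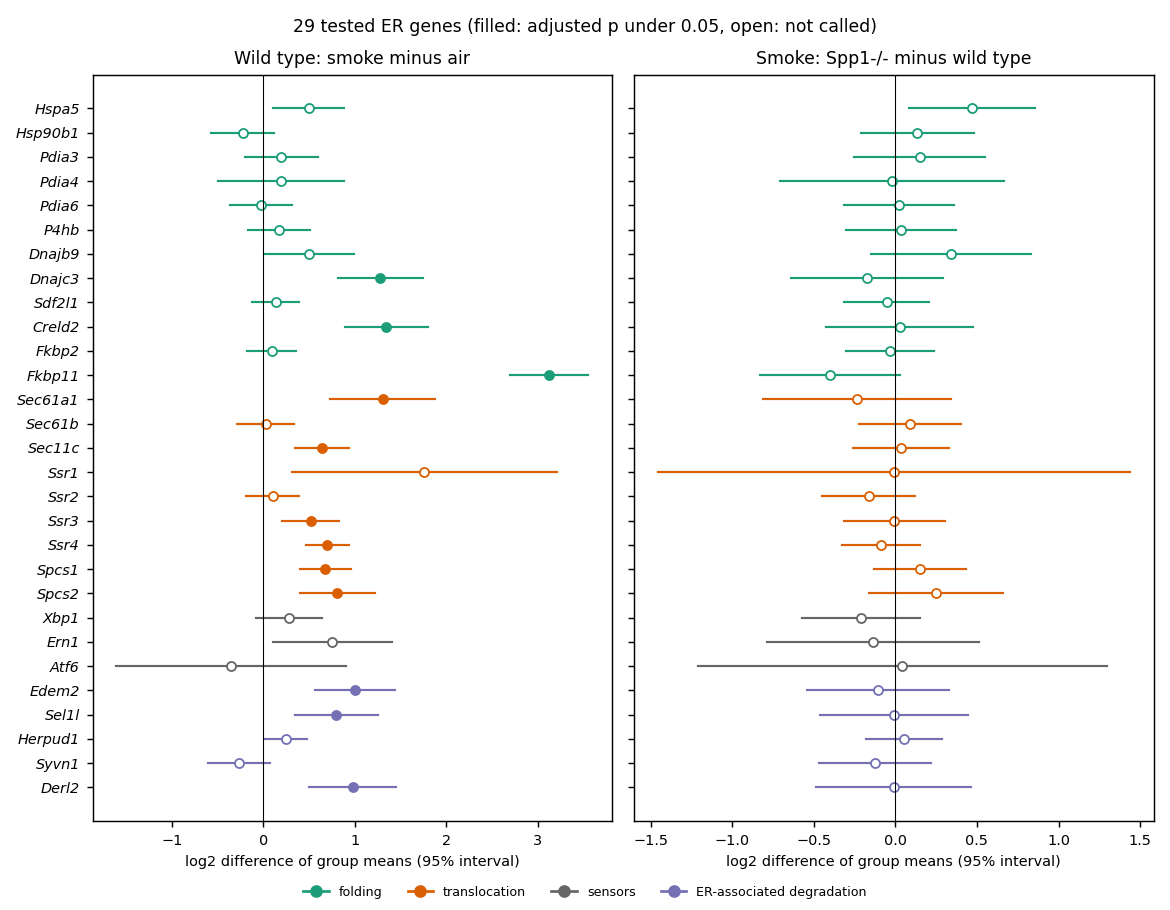
Log2 difference of group means with its 95% interval for the 29 tested ER genes, by role, for smoke minus air in wild type (left) and for Spp1-/- minus wild type in smoke (right). The horizontal scales of the panels differ. On the left 12 genes pass, all to the right of 0 and led by Fkbp11 at 3.13, and on the right none passes and the values lie between -0.40 and 0.47.

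The 28 tested genes of ER to Golgi transport included 8 that rose and 1 that fell, with a median log2 difference of 0.41. These shares were 28.6% and 3.57%, against 11.1% and 10.3% of all tested genes. Arfgap3, a GTPase-activating protein of retrograde COPI transport, rose by 1.69 on the log2 scale, Surf4, a cargo receptor, by 1.18, Mcfd2, the partner of the cargo receptor LMAN1, by 1.06, and the COPII coat subunit Sec24d by 0.99 (limma adjusted p between 0.00263 and 0.0104). The single fall was that of Preb, the exchange factor that starts COPII coat assembly, at -0.71. Leaving out either array of wild type smoke gave 3 higher and 0 lower, and leaving out either Spp1-/- array gave 4 and 0. Surf4 was not called when wild type smoke replicate 1 was dropped, nor Sec24d when replicate 2 was.

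Further translocation and glycosylation genes shifted less. Of 25 tested, 4 rose and 0 fell, with a median of 0.31, and the 4 were Sec61g, the third subunit of the channel, at 0.67, and Ost4, Rpn2 and Ostc of the oligosaccharyltransferase, at 0.72, 0.57 and 0.55. Of 18 further degradation genes, 3 rose and 0 fell (median 0.26), namely the ubiquitin ligases Rnf139 and Marchf6, at 1.02 and 0.96, and the conjugating enzyme Ube2j1, at 0.83. Erlec1, a lectin that binds degradation substrates, differed by 0.51 and did not pass (limma adjusted p = 0.0557). These shares, 16% and 16.7%, stood nearer to the 11.1% of all tested genes than the 41.4% of the members did, and the difference between the lists was not tested. Without either wild type smoke array 0 translocation and glycosylation genes and 1 degradation gene rose, the latter being Marchf6, and without either Spp1-/- array 1 and 2 rose. Without wild type air replicate 1 the counts were 9 and 4, and without replicate 2 they were 5 and 2.

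Of 18 further genes of unfolded protein response signalling, 2 rose and 0 fell, with a median of 0.14. This share of rises, 11.1%, equals that over all tested genes. The 2 were Trib3, a pseudokinase induced by ATF4 and CHOP, from 9.20 ± 0.08 (SD, n = 2) to 11.84 ± 0.13, and Atf3, a stress-induced transcription factor, from 8.13 ± 0.03 to 9.19 ± 0.0030. Trib3 kept its call with each array left out, whereas Atf3 lost it without either wild type smoke array. Without wild type air replicate 2 there were 4 genes that rose. Ddit3, which encodes CHOP, differed by 0.54 and did not pass (limma adjusted p = 0.057). Bhlha15, known as Mist1, a transcription factor of secretory cells, differed by -0.48 and did not pass (limma adjusted p = 0.0695), though it passed downward without wild type air replicate 1.

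Among 26 further folding genes, 3 rose and 6 fell. The share that rose, 11.5%, lay near the 11.1% of all tested genes, and the share that fell was 23.1% against 10.3%. The largest falls were those of Serpinh1, the collagen chaperone HSP47, from 12.85 ± 0.20 (SD, n = 2) to 9.36 ± 0.22, of the cyclophilin gene Ppic, from 13.25 ± 0.19 to 11.16 ± 0.37, and of the prolyl isomerase gene Fkbp9, from 12.42 ± 0.15 to 10.63 ± 0.35. Selenof, a selenoprotein that binds the glycoprotein glucosyltransferase, rose by 0.59. Without either wild type smoke array 0 of these genes rose and 2 fell, Serpinh1 and Fkbp9, without either Spp1-/- array 2 rose and 3 fell, and without wild type air replicate 2 the counts were 3 and 3. Markers of fibroblasts and smooth muscle fell in the same comparison, 10 of 10 tested, with a median of -1.95, and their part in the falls of Serpinh1, Ppic and Fkbp9 was not tested.

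Markers of other cell types that the preparations could hold were set beside the rises. Of 12 tested epithelial markers 9 fell and 0 rose, and of 10 endothelial markers 9 fell. Of 6 B cell markers 4 fell, as did 4 of 6 plasmacytoid dendritic cell markers. The falls numbered 3 and 5 for epithelium without wild type smoke replicates 1 and 2, 9 for endothelium whichever array was left out, and between 1 and 3 for the plasmacytoid dendritic cell list. B cell falls numbered 2 without wild type smoke replicate 1. Fibroblast falls numbered 6 without either wild type smoke array. Among 7 alveolar macrophage markers 2 rose and 1 fell, and among 7 markers of conventional dendritic cells 1 rose. Of the 10 plasma cell markers 8 were measured and 4 were bright enough to test. The joining chain gene Jchain read between 7.14 and 7.33 on all 6 arrays, about the median of all probes, and Tnfrsf17, the BCMA receptor of plasma cells, between 6.99 and 7.38. Mzb1, a chaperone of antibody-secreting cells, read 8.47 ± 0.17 (SD, n = 2) with air against 7.98 ± 0.12 with smoke in wild type and did not pass (limma adjusted p = 0.0557). Irf4, a transcription factor of plasma cells that dendritic cells and macrophages also express, rose from 7.82 ± 0.12 to 9.47 ± 0.02. The summed intensity of the plasma cell markers ran from 3349 to 3621 in air and from 3500 to 4004 in wild type smoke. The brightest gene, Txndc5, weighs most in this sum and is also among the further folding genes. It stood at 10.84 and 11.13 in air and 10.83 and 11.10 in wild type smoke. Sdc1 and Prdm1 were too dim to be tested. Sdc1 read 7.76 and 7.30 in air and 6.98 and 7.06 in wild type smoke. Prdm1 read 7.07 and 8.07 in air and 6.92 and 7.07 in wild type smoke. Pou2af1 differed by 0.42 and did not pass (limma adjusted p = 0.516). The part of these cells in the rises of the ER genes was not tested.

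**Figure D3:**
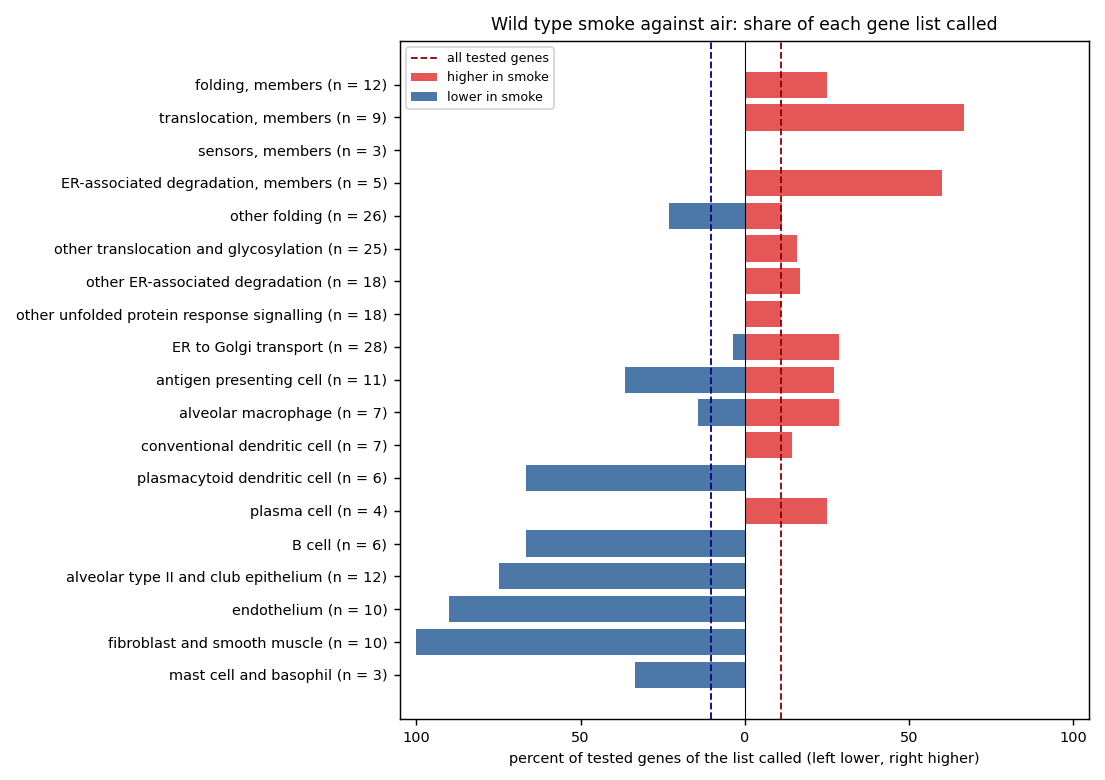
Percent of the tested genes of each list that passed as higher (right) or lower (left) in wild type smoke than in air, with dashed lines at the shares among all 12382 tested genes, 11.1% higher and 10.3% lower. The translocation and degradation members stand at 66.7% and 60% higher with none lower, and the markers of epithelium, endothelium and fibroblasts stand on the lower side.

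Probes of one gene were also set against each other. For Creld2, Derl2, Edem2, Ssr4, Spcs1, Herpud1 and Dnajb9 the second brightest probe gave a difference of the same sign and of similar size. Other second probes varied. Those of Fkbp2 and Sec61b gave larger values, 0.23 against 0.09 and 0.14 against 0.02, and that of Atf6 the opposite sign, 0.13 against -0.35. Several gave smaller values. The second probes of Dnajc3 and Ssr3, below the brightness limit, gave -0.0085 and 0.09. Some above the limit differed as well, with -0.03 for Sec61a1 (mean 7.43) against 1.30, 0.10 for Ern1 (mean 7.59) against 0.75, 0.18 for Ssr1 (mean 8.04) against 1.76, and 0.35 for Sel1l (mean 9.72) against 0.79.

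**Figure D4:**
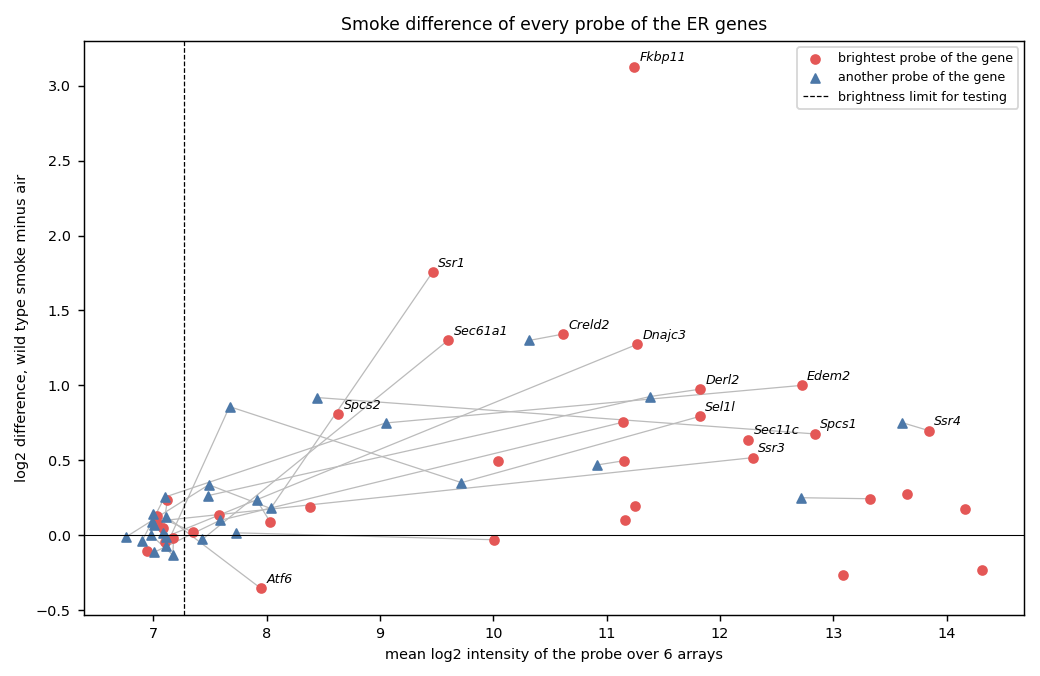
Log2 difference of wild type smoke minus air for every probe of the 36 measured ER genes, against the mean log2 intensity of the probe over the 6 arrays, with grey lines joining probes of one gene. Probes left of the dashed brightness limit of 7.27 lie between -0.13 and 0.25, and the bright second probes of Creld2 and Ssr4, at 1.30 and 0.75, lie beside the brightest ones.

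The second comparison asked how these genes differed between Spp1-/- and wild type preparations when both had been given smoke. None of the 29 genes passed (limma, 0 higher and 0 lower, as for 0% of all tested genes), and the median log2 difference was -0.0060. At an unadjusted p under 0.05 there was 1 gene, Hspa5, against 4.36% of all tested genes. Hspa5 stood at 10.23 and 9.87 in wild type and at 10.51 and 10.53 in Spp1-/- preparations, a log2 difference of 0.47 ± 0.15 (SE), and did not pass (limma adjusted p = 0.9997). Its 95% interval ran from 0.08 to 0.86. With each array left out, its difference lay between 0.29 and 0.65, and that of Fkbp11 between -0.55 and -0.25.

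Fkbp11 had the lowest difference of the list, -0.40, with both Spp1-/- arrays, at 11.996 and 12.04, below both wild type smoke arrays, at 12.57 and 12.27. Its 95% interval ran from -0.83 to 0.03. Dnajb9, at 11.36 and 11.72 in Spp1-/- preparations against 11.14 and 11.26, differed by 0.34, with an interval from -0.15 to 0.83, and its second probe gave 0.57. Spcs2, at 9.20 and 8.94 in Spp1-/- preparations against 8.99 and 8.64, differed by 0.25 (interval -0.16 to 0.66). Xbp1 differed by -0.21 (interval -0.57 to 0.15), and neither Spcs2 nor Xbp1 passed.

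The groups did not overlap for 5 of the 29 genes with higher values in Spp1-/- preparations and for 5 with lower values, against 18.3% and 19.5% of all tested genes. By role, the medians were 0.03 for folding, -0.0060 for translocation, -0.14 for the sensors and -0.0090 for degradation. Intervals for single genes were as wide as -1.46 to 1.44 for Ssr1 and as narrow as -0.18 to 0.28 for Herpud1. They are not adjusted for the number of genes tested. With 2 arrays a group, true differences anywhere within a gene's interval remain possible.

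In the third comparison, Spp1-/- smoke was set against wild type air, so that genotype and smoke differed together. It shares arrays with both other comparisons and is no independent check of either. Of the 29 genes 14 passed as higher and 0 as lower, against 12.2% and 10.5% of all tested genes. The 14 held the 12 genes named for wild type together with Hspa5, at 1.95-fold (limma adjusted p = 0.0132), and Dnajb9, at 1.79-fold (limma adjusted p = 0.036). Fkbp11 was 6.61-fold higher than in air here and 8.73-fold higher in wild type smoke, Creld2 2.58-fold and 2.54-fold, Sec61a1 2.10-fold and 2.47-fold, and Edem2 1.85-fold and 2-fold. Without Spp1-/- replicate 1, 3 of the 14 kept their call, Fkbp11, Creld2 and Spcs1, and without Spp1-/- replicate 2 it was 2, Fkbp11 and Creld2. Without either array of wild type smoke 9 did. For Hspa5 and Dnajb9 the direct difference between the genotypes is the one given in the second comparison, and neither passed there.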

How the data were processed

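The values used were the authors' deposited log2 intensities of 45281 probes on 6 Illumina arrays. The submitters' processing notes list limma with no version number, with the background correction not given in the sources used here. Sorted, the columns differed by no more than 0.0056, as after quantile normalization, and the floor of 6.619 compresses dim probes. A further table of 12 columns was not used, because its column names match no sample label. The number of arrays limits the precision.

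Probe names follow the platform annotation, updated through Entrez identifiers, and 34885 had 1 symbol, 18 several and 10378 none. The files name no genome build. Each gene was kept by its brightest probe, and the 12382 genes in the brighter 50% of probes were fitted with limma 3.58.1 in R 4.3.3 (1 coefficient per group over all 6 arrays, 3 residual and 2.24 prior degrees of freedom). Calls are Benjamini-Hochberg adjusted p-values under 0.05, adjusted over all tested genes. The steps were tested on simulated data.

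The members and gene lists were chosen with earlier results of these data known. Array values of all 3 groups are given for Fkbp11, Hspa5, Xbp1 and the 5 members with the smallest p between genotypes. For the other members called in wild type smoke against air, those of both wild type groups are given. Their Spp1-/- values are given for some only. Of each further pathway list up to 4 genes with the smallest p are named. Other members and marker genes named, and Sec11a and Spcs3, were chosen after their values were seen. Alternatives are listed in the closing section.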

Additional observations from a re-analysis of the deposited data

How the results depend on the processing

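With only the groups compared in the fit, 7 members were called in wild type smoke against air and 9 in Spp1-/- smoke against wild type air, in place of 12 and 14, and with at least a 2-fold change 5 in each, all higher. Over the fits that left out 1 array, the first count ran from 1 to 15 (1 to 15 higher, 0 to 1 lower) and the other from 2 to 17 (2 to 16 higher, 0 to 1 lower). The members called lower were Atf6 without wild type air replicate 2 and Syvn1 without wild type air replicate 1. No member was called between the genotypes under any alternative, while 6 to 9 of all genes were called with the brighter 25% of probes, a trend and robust prior, only the groups compared, array weights, or without either air array. All genes called in smoke against air numbered 2645, 1489 with only the groups compared, 1295 with at least 2-fold, and from 743 to 3858 with an array left out. No filter, the mean of probes, the floor removed with an offset of 16 and centred arrays kept 11 to 12 of the 12 members. Of 192 values of called members in that comparison under the alternatives, 139 kept their side of the threshold, 53 lost it and 0 changed sign. Sign changes came from uncalled members with an array left out. The ranges were -1.14 to 0.43 for Atf6, -0.14 to 0.0781 for Pdia6, -0.11 to 0.16 for Sec61b, -0.13 to 0.51 for Pdia4 and -0.0027 to 0.20 for Ssr2. The cause was not tested. Array weights kept 10 of the 12. With the replicate number as a block, 10 of the 12 and 11 of the 14 calls were kept. The same-numbered arrays deviated together with r = 0.137, -0.082 and -0.029 for the 3 pairs of groups. With 2 arrays a group, these values cannot decide whether the numbers pair the samples. A fit without an array takes the remaining array of that group to vary as the other groups do.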
